A study of Mus musculus with 6 samples.

Results

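Neutrophil-attracting CXC chemokines were followed at the RNA level in D4M-3A cells, a mouse melanoma line. Members were taken by symbol, namely Cxcl1, Cxcl2, Cxcl3, Cxcl5, Cxcl15 and Ppbp, which are 6 of the 43043 genes listed for each sample. Both groups were D4M-3A cells that had been transduced with lentivirus and selected with puromycin. The 3 Ctrl samples carried an empty CRISPR-Cas9 construct, and the 3 Nfkbiz KO samples carried a construct directed against Nfkbiz. The study calls its samples independent experiments. Whether the knockout cells were a clone or a pool is not given in the sources used here, so the p-values measure the spread between these samples.

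CXC chemokines that carry the ELR motif (glutamate, leucine and arginine before the CXC cysteines) bind the receptor CXCR2, and in some species also CXCR1, and draw neutrophils into inflamed tissue. In many cell types IL-1, TNF and IL-17 induce their genes through NF-κB, and their mRNAs are short-lived unless stabilised. IκBζ, the product of Nfkbiz, is a nuclear co-regulator that binds NF-κB p50 and is needed for part of the NF-κB response. Cxcl1 (KC), Cxcl2 (MIP-2) and Cxcl3 (DCIP-1) are close relatives, Cxcl5 (LIX) is a further neutrophil attractant of stromal and epithelial cells, Cxcl15 (lungkine) is known from lung epithelium, and Ppbp is the precursor of NAP-2 from platelets.

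The annotation of GRCm39 (GENCODE) places all 6 genes on the plus strand of chromosome 5, within 146.6 kb. Cxcl5 (ENSMUSG00000029371) lies at chr5:90907186-90909483, Ppbp (ENSMUSG00000029372) at chr5:90916371-90917930, Cxcl3 (ENSMUSG00000029379) at chr5:90933962-90937459 and Cxcl15 (ENSMUSG00000029375) at chr5:90942393-90950926. Cxcl1 (ENSMUSG00000029380) at chr5:91039094-91040974 and Cxcl2 (ENSMUSG00000058427) at chr5:91051730-91053797 follow after a gap.

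Promoters are shown because IκBζ acts through NF-κB and because the fitted changes of members of this cluster differed. The sequences are RefSeq's (table build GRCm38.p6), which held 5 of the 6 members. Cxcl5 was the one missing, so its promoter was not searched and cannot be compared. Each printed stretch matched GRCm39 chromosome 5 at exactly 1 place. They run 5′ to 3′ on the plus strand from 120 to 31 bases before the RefSeq start site. Capitals mark the letters that match the κB consensus, searched on both strands.
Cxcl1, chr5:91038984-91039073: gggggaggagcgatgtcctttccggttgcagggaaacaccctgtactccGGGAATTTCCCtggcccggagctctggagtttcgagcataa
Cxcl2, chr5:91051638-91051727: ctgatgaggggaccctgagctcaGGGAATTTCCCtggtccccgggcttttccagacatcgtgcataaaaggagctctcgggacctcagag
Cxcl3, chr5:90933840-90933929: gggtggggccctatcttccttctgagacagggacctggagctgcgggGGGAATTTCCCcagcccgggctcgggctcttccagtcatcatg
Cxcl15, chr5:90942273-90942362: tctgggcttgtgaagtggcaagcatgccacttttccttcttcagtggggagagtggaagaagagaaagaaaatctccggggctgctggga
Ppbp, chr5:90916257-90916346: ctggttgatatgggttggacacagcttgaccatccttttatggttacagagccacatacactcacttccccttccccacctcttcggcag

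Cxcl1, Cxcl2 and Cxcl3 held the same κB match in this stretch. It was GGGAATTTCC on the plus strand, with an overlapping match of GGGAAATTCC on the minus strand that begins 1 base further on. On the plus strand it spanned bases -71 to -62 in Cxcl1, -97 to -88 in Cxcl2 and -73 to -64 in Cxcl3, counted from the RefSeq start site. The RefSeq start sites of these genes are not the GENCODE starts given above and differ most for Cxcl2. The offsets of the genes are therefore not to be compared with each other. The κB consensus occurred in 8.46% of the 32851 promoters of 300 bases in the table, and GGGAATTTCC in 0.088% of them. In the 300 bases of Cxcl15 and Ppbp no match was found, which says only that these letters are not in that window.

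Cxcl1 was the most abundant member by far and was lower in Nfkbiz KO, and Cxcl5, at a much lower level, was close to undetected there. Cxcl2, in Ctrl at 1.18 ± 0.137 TPM against 3.22 ± 0.304 TPM for Cxcl5 (SD, n = 3), did not differ detectably between the groups. Cxcl3, Ppbp and Cxcl15 were at or near the limit of detection in both groups. So 2 of the 3 members that could be tested were lower in Nfkbiz KO and 0 were higher (edgeR's quasi-likelihood test, adjusted p of 0.05 or less over the 14419 genes tested), against a background of 18.4% of genes tested called lower and 18.2% called higher. Of these 2 members Cxcl5 passed the filter on low counts through its Ctrl reads alone and so had to differ, which leaves Cxcl1 as 1 of 2 and too few members to read a share against the background. The thresholds in the study's methods ask for more than a 2-fold change, a difference above 4 (taken here as TPM) and the same adjusted p. By these 0 of the 3 members tested were called, too few to set against the 1.79% of genes tested. The study's results text gives a 2-fold change and p without that difference, which Cxcl5 meets (log2 fold change -5.97, adjusted p = 9.7e-07 by edgeR). The share of all genes that meet these was not counted. The study's less stringent thresholds ask for a change of 1.5-fold or more with p values up to 0.1, taken here as adjusted p. By these Cxcl1 and Cxcl5 were called, against 12.6%.

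**Figure D1:**
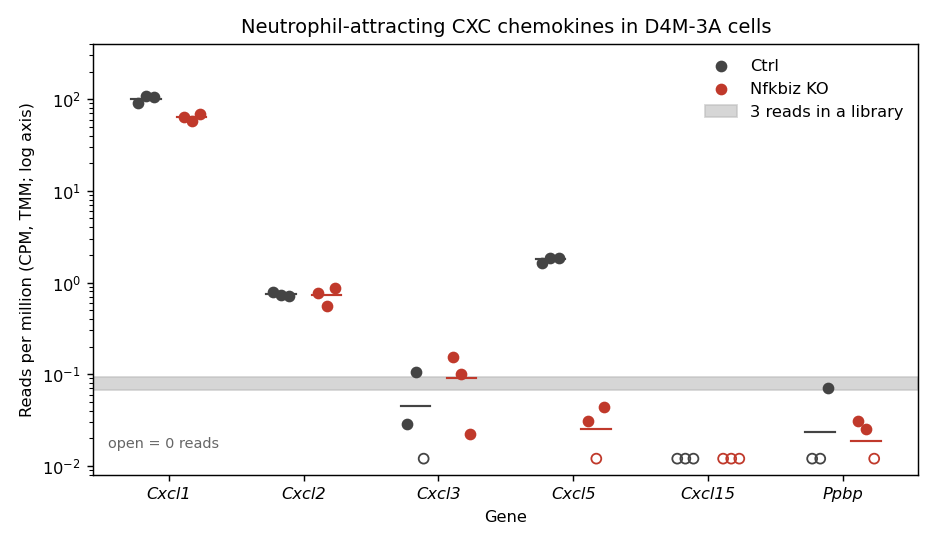
Read counts of each member scaled to library size by TMM (CPM, log axis) in the 3 Ctrl and 3 Nfkbiz KO samples, with a bar at each group mean. Open points at the bottom are samples with 0 reads and the grey band is the CPM of 3 reads in the shallowest to the deepest library. Cxcl1 and Cxcl5 have groups that do not overlap, and Cxcl5 lies above the band in Ctrl and below it in Nfkbiz KO.

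Libraries held between 32219900 and 44927203 gene reads, so that 3 reads, taken as the limit of detection, corresponded to 0.0666 to 0.0921 CPM. All reads counted on the members mapped uniquely, which matters for close relatives such as Cxcl1, Cxcl2 and Cxcl3. The targeted gene Nfkbiz, read on chromosome 16 whether edited or not, was at 69.2 ± 5.87 TPM (SD, n = 3) in the Ctrl samples and at 34.9 ± 0.245 TPM in the Nfkbiz KO samples. Its transcript level does not measure the IκBζ protein. Of 10 leukocyte markers, 9 were under 10 reads in every sample and 4 (Csf3r, Elane, Mpo and S100a9) were at 0 in all. Their summed level was 10.9 to 15.1 TPM in Ctrl and 4.81 to 7.33 TPM in Nfkbiz KO, nearly all of it S100a8. The melanocyte markers Sox10 and Tyr were at 0 reads in all 6 samples, Tyrp1 and Dct had at most 1 read, and Mitf had 60 to 115 reads. The 9 melanocyte and melanoma markers summed to 3.45 to 4.14 TPM in Ctrl and 12.9 to 13.9 TPM in Nfkbiz KO, mostly through Cspg4, and the part of this difference in the chemokine results was not tested.

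Cxcl1, the main neutrophil-attracting chemokine of many mouse cell types, had 3155, 4136 and 4453 reads in Ctrl replicates 1, 2 and 3, against 2057, 2323 and 3140 in the Nfkbiz KO replicates. Per transcript length and depth this was 163, 204 and 179 TPM against 122, 111 and 132 TPM. Every Nfkbiz KO sample was below every Ctrl sample in TPM. The same held in CPM, where 24.5% of genes tested had groups that did not overlap with Nfkbiz KO lower, and 23.9% with Nfkbiz KO higher. The mean fell from 182 ± 20.6 TPM to 122 ± 10.6 TPM (SD, n = 3). On the read counts the log2 fold change was -0.67 (SE 0.078, 95% interval -0.84 to -0.50, adjusted p = 2.8e-05 by edgeR), a level 1.60 times as high in Ctrl (95% interval 1.42 to 1.80). The exact permutation test gave p = 0.1, two-sided, the smallest that 3 samples against 3 allow. Of all genes tested, 6.66% had a lower log2 fold change than Cxcl1, and 5.52% had a higher mean TPM in Ctrl.

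Cxcl5 had 57, 71 and 79 reads in Ctrl replicates 1, 2 and 3 but 1, 0 and 2 reads in the Nfkbiz KO replicates. In TPM this was 2.92, 3.53 and 3.21 against 0.0597, 0 and 0.0850. The Ctrl samples lay close together, and each Nfkbiz KO sample was below the limit of 3 reads. Pooled over the replicates, 207 reads stood against 3, a ratio of 70.5 after library size, with a counting interval of 23.8 to 345. That interval covers counting error only. The fitted log2 fold change was -5.97 (SE 0.47, 95% interval -7.00 to -4.94, adjusted p = 9.7e-07 by edgeR), and the exact permutation test again gave its smallest p of 0.1. In this fit 0 of the 14419 genes had a lower log2 fold change. That place moved with the fit, for 13 genes were lower with limma on log2(TPM + 1), 5 without the filter on low counts, and 1 to 6 when Ctrl replicate 2 or any Nfkbiz KO replicate was left out. Cxcl5 passed the filter on low counts only through its Ctrl reads, so a gene with these levels had to differ. The difference of group means, 3.22 ± 0.304 against 0.0482 ± 0.0437 TPM (SD, n = 3), is below the cut-off of 4. This is why Cxcl5 was not called by the thresholds in the study's methods.

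**Figure D2:**
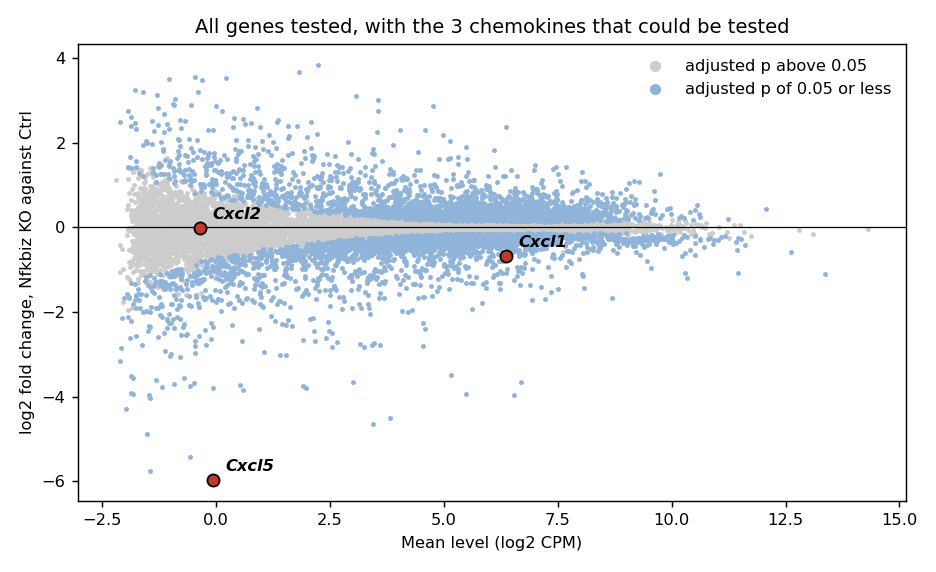
Log2 fold change of Nfkbiz KO over Ctrl, set against the mean level (log2 CPM) for each of the 14419 genes tested, blue where the adjusted p was 0.05 or less. Cxcl5 has the lowest fold change of all genes in this fit, -5.97, at a low level, Cxcl1 lies at -0.67 among highly expressed genes and Cxcl2 at -0.02 within the grey band of genes that did not pass.

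Cxcl2, which like Cxcl1 is a classical early NF-κB target in macrophages, was counted 27, 28 and 30 times in the Ctrl samples and 25, 22 and 39 times in the Nfkbiz KO samples. This corresponded to 1.27, 1.25 and 1.02 TPM, against 1.35, 0.957 and 1.49 TPM. The groups overlapped, with the lowest and the highest value both in Nfkbiz KO. The log2 fold change was -0.02 (SE 0.29, adjusted p = 0.96 by edgeR), and the exact permutation test gave p = 0.9. The 95% interval, -0.65 to 0.61, leaves room for a change of moderate size in either direction. A fall as large as the one fitted for Cxcl5 lies outside it.

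The other members gave too few reads to test. Cxcl3 had 1, 4 and 0 reads in the Ctrl samples and 5, 4 and 1 in the Nfkbiz KO samples, at most 0.159 TPM, with the groups overlapping. Ppbp had 0, 0 and 3 reads in the Ctrl samples and 1, 1 and 0 in the Nfkbiz KO samples, and the read of Nfkbiz KO replicate 2 lay outside the exons, since its TPM was 0. Cxcl15 had 0 reads in all 6 samples, which allows a level of up to 0.0666 to 0.0921 CPM depending on the library. For these 3 genes a difference between the groups was not detectable at this depth. Of the cell types in which 2 of them are known, platelet markers were at 0 in all samples for 4 of 6 genes (Pf4, Gp9, Gp6 and Treml1), whereas Itga2b had 49 to 106 reads in every sample, with a log2 fold change of 0.06 (adjusted p = 0.90 by edgeR), and Gp1bb had 0 to 12. The 5 airway and alveolar markers, Sftpc and Scgb1a1 among them, were under 10 reads in every sample.

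The fitted changes of the 3 members tested differed in size, but those of Cxcl5 were bound to by the filter. Within each sample, the ratio of 2 members needs no library size, and 3 pairs could be compared, with 0.5 reads added to each count. The log2 ratio of Cxcl1 to Cxcl2 went from 7.07 ± 0.198 (SD, n = 3) to 6.45 ± 0.212, a difference of -0.63 between Nfkbiz KO and Ctrl (SE 0.17). The log2 ratio of Cxcl1 to Cxcl5 went from 5.81 ± 0.0384 to 10.97 ± 1.05, a difference of 5.15 (SE 0.61). That of Cxcl2 to Cxcl5 went from -1.26 ± 0.17 to 4.52 ± 0.843, a difference of 5.78 (SE 0.50). In each pair the 3 ratios of Nfkbiz KO lay all on the same side of the 3 ratios of Ctrl. Each exact permutation test gave p = 0.1 (adjusted p = 0.1 over the 3 pairs), which is as far as this design reaches. The sizes of both ratios with Cxcl5 depend on the added 0.5 reads, because Cxcl5 had 0 to 2 reads in Nfkbiz KO.

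Summed over the 6 members, the samples had 168, 209 and 184 TPM in Ctrl and 124, 112 and 134 TPM in Nfkbiz KO. Cxcl1 made up 97.5% to 97.7% of that sum in Ctrl and 98.7% to 99.1% in Nfkbiz KO, so the summed level followed Cxcl1. Cxcl5 held 1.76%, 1.67% and 1.73% of the members' reads in Ctrl. In Nfkbiz KO it held 0.0479%, 0% and 0.0629%, with Wilson 95% intervals reaching up to 0.271%, 0.163% and 0.229%, which cover counting error only.

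By position, the 2 members that were lower do not lie side by side. The start of Cxcl1 is 131.9 kb from that of Cxcl5, with Ppbp, Pf4, Cxcl3 and Cxcl15 between them, all at 5 reads or fewer in every sample, and the next gene after Cxcl1 is Cxcl2. Of 8 neighbours of the cluster, 4 could be tested, and 2 were lower and 2 higher in the knockout (18.4% and 18.2% over all genes tested). Their median log2 fold change was 0.04 against -0.02 over all genes tested. Btc (betacellulin) and Ereg (epiregulin), ligands of the EGF receptor family, were higher. Btc went from 8.24 ± 0.433 to 40.0 ± 4.38 TPM (SD, n = 3, log2 fold change 2.17), and Ereg had a log2 fold change of 0.44. Areg (amphiregulin), another such ligand, and the folate enzyme gene Mthfd2l were lower, with log2 fold changes of -0.42 and -0.35. Rassf6 and Epgn had at most 5 and 10 reads in any sample, and Pf4 and Parm1 had none.

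**Figure D3:**
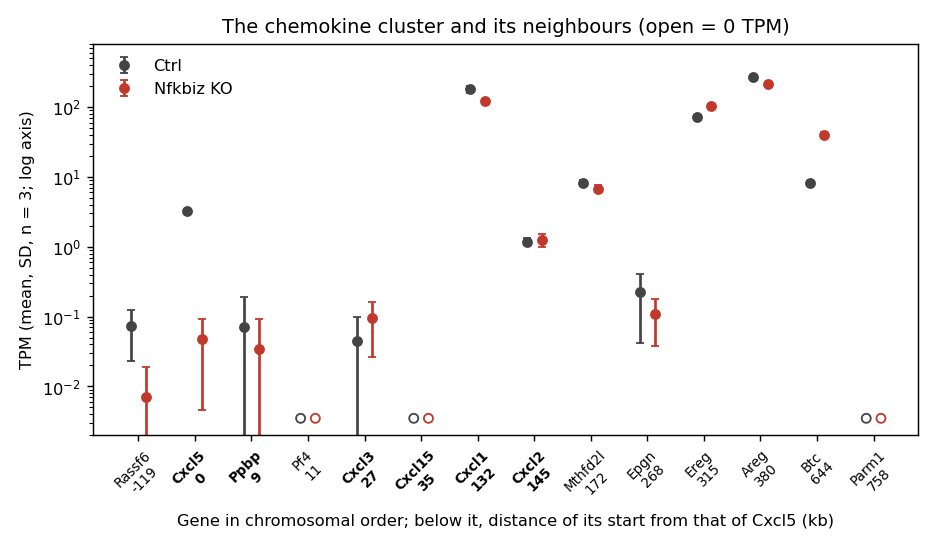
TPM (mean and SD of 3 samples, log axis) of the 6 members, in bold, and of their neighbours in chromosomal order, with the distance of each start from that of Cxcl5 in kb. Open points are genes at 0 TPM in every sample of the group. Levels and directions vary along the cluster, from Cxcl5 at 0 kb, lower in Nfkbiz KO, to Btc at 644 kb, higher in Nfkbiz KO.

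The receptors for these ligands were next to absent from the cells. Cxcr1 had 0 reads in all 6 samples, Cxcr2 had 2 reads in Ctrl replicate 3 and 0 elsewhere, and the decoy receptor Ackr1 had 2 reads and 1 read in Nfkbiz KO replicates 2 and 3. None of the 3 could be tested.

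CXC chemokines without the ELR motif, which attract lymphocytes or other cells rather than neutrophils, moved in both directions. Of 9, 5 could be tested, 2 were higher and 2 lower (18.2% and 18.4% over all genes tested), with a median log2 fold change of -0.28. Cxcl10, a CXCR3 ligand that draws T cells, was at 517, 558 and 493 TPM in the Ctrl samples and at 1139, 1087 and 1221 TPM in the Nfkbiz KO samples, without overlap. Its log2 fold change was 1.04 (SE 0.060, adjusted p = 6.6e-08 by edgeR), in the direction opposite to Cxcl1. Cxcl11, a further CXCR3 ligand, was higher by 0.46 on the log2 scale (adjusted p = 0.021 by edgeR), a call that was lost without Nfkbiz KO replicate 2 (log2 fold change 0.48, adjusted p = 0.051) or replicate 3 (0.38, adjusted p = 0.11). Cxcl12, the CXCR4 ligand, and Cxcl16, the CXCR6 ligand, were lower, with log2 fold changes of -0.31 and -0.39. Cxcl9, the remaining CXCR3 ligand, did not pass, at -0.28 (adjusted p = 0.56 by edgeR).

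Among other factors that recruit, mobilise or activate neutrophils, C3, Csf2, S100a8 and Mif were lower in Nfkbiz KO, as was Csf3 at low counts. Of 11, 6 could be tested, 5 were lower and 0 higher (18.4% and 18.2% over all genes tested), with a median log2 fold change of -1.61. Csf3 (G-CSF), which drives the production of neutrophils, was counted 49, 47 and 39 times in the Ctrl samples and 2, 2 and 6 times in the Nfkbiz KO samples, with a log2 fold change of -3.76 (SE 0.43). Like Cxcl5, it passed the filter on low counts through Ctrl alone, so its direction was fixed by the filter, and without it 4 of 5 were lower, with a median of -1.32. The filter also removed Hc (complement C5), which went the other way, with 3, 0 and 0 reads in the Ctrl samples and 10, 9 and 6 in the Nfkbiz KO samples. Without the filter Hc was called higher (log2 fold change 2.90, SE 1.05, adjusted p = 0.028 by edgeR), its groups not overlapping in CPM. In TPM, from exon reads, they overlapped near 0, with 0.0465, 0 and 0 in Ctrl against 0.0533, 0.0718 and 0.0253 in Nfkbiz KO. C3, the complement component from which C3a and the opsonin C3b are cleaved, was at 124, 142 and 110 TPM in the Ctrl samples and at 10.1, 11.2 and 10.5 TPM in the Nfkbiz KO samples (log2 fold change -3.64, SE 0.076). Csf2 (GM-CSF), which prolongs neutrophil survival, went from 54.7 ± 7.16 to 16.0 ± 1.39 TPM (SD, n = 3, log2 fold change -1.90). S100a8, a calgranulin subunit, fell by 1.32 on the log2 scale, while its partner S100a9 had 0 reads in all samples. Mif, a cytokine that can also bind CXCR2, fell by 0.60 on the log2 scale from a mean of 2428 TPM in Ctrl. Lta4h, the enzyme of leukotriene B4 synthesis, had a log2 fold change of 0.02 and did not pass. The groups did not overlap for any of the 5 that were lower, as for 24.5% of all genes tested in that direction. Several of these genes were already seen to be lower in earlier results of these data, so the count is a description and no independent evidence of a direction.

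**Figure D4:**
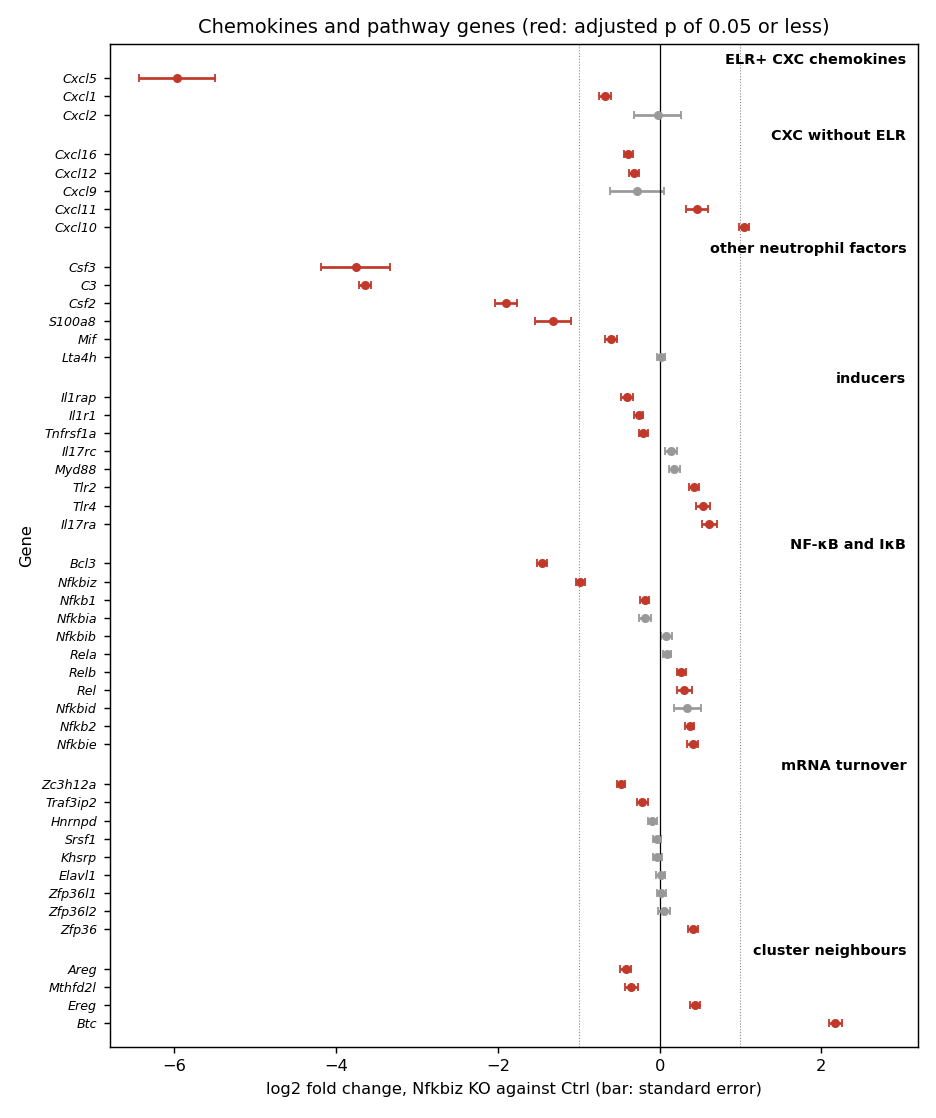
Log2 fold change of Nfkbiz KO over Ctrl, with its standard error, for the members and for the genes of each list that could be tested, red where the adjusted p was 0.05 or less and with dotted lines at a 2-fold change. Cxcl5, Csf3 and C3 reach furthest to the left. Of the 6 neutrophil factors tested, 5 were called lower (18.4% over all genes tested), and Lta4h lies at 0.02. These 5 include Csf3, whose direction was fixed by the filter on low counts. The other 5 lists have called genes on both sides of 0.

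The cytokines that induce these chemokines were hardly read in the cells. Il1b and Il17a had 0 reads in every sample, Il1a had 1 to 4 reads, Tnf 0 to 6 and Il17f 0 to 3. Their receptors and adaptors were read. Of 13 genes in this list 8 could be tested, 3 higher and 3 lower (18.2% and 18.4% over all genes tested), with a median log2 fold change of 0.16. Il17ra, the shared chain of the IL-17 receptors, and the Toll-like receptors Tlr2 and Tlr4 were higher, with log2 fold changes of 0.61, 0.43 and 0.54. The IL-1 receptor chains Il1r1 and Il1rap and the TNF receptor Tnfrsf1a were lower, with log2 fold changes of -0.26, -0.40 and -0.20. For Tnfrsf1a the call was lost without Nfkbiz KO replicate 1 (adjusted p = 0.060) or replicate 3 (adjusted p = 0.077).

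All 11 NF-κB subunits and IκB proteins could be tested, 4 higher and 3 lower (18.2% and 18.4% over all genes tested). Their median log2 fold change was 0.09. Besides Nfkbiz (-0.98), Bcl3, a nuclear IκB protein that binds p50 and p52, was lower, from 57.8 ± 1.51 to 23.1 ± 1.22 TPM (SD, n = 3, log2 fold change -1.45). Nfkb2, Relb and Nfkbie were higher by 0.37, 0.27 and 0.41 on the log2 scale. Rela, the transactivating subunit p65, did not pass, at 0.09 (adjusted p = 0.22 by edgeR). The calls of Rel (0.31) and Nfkb1 (-0.18) were lost when single samples were left out. Rel had an adjusted p of 0.068 without Ctrl replicate 3, 0.10 without Nfkbiz KO replicate 1 and 0.081 without replicate 2. Nfkb1 had 0.086 and 0.052 without Ctrl replicate 1 or 2 and 0.080, 0.065 and 0.11 without Nfkbiz KO replicates 1, 2 and 3.

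Among 9 regulators of chemokine mRNA turnover, 1 was higher and 2 lower, with a median log2 fold change of -0.03. These counts are near the background of 18.2% higher and 18.4% lower and say nothing about the list. Zfp36 (tristetraprolin), which marks AU-rich mRNAs for decay, was higher, from 23.7 ± 0.178 to 33.6 ± 0.489 TPM (SD, n = 3, log2 fold change 0.41). Zc3h12a (Regnase-1), an endonuclease of inflammatory mRNAs, was lower by 0.48 on the log2 scale, from 71.8 ± 3.77 TPM. Traf3ip2 (Act1), the IL-17 receptor adaptor, had a log2 fold change of -0.21, and its call was lost without Ctrl replicate 2 (adjusted p = 0.075), Nfkbiz KO replicate 1 (0.12) or replicate 3 (0.078). Elavl1 (HuR), Hnrnpd (AUF1), Khsrp, Srsf1, Zfp36l1 and Zfp36l2 did not pass.

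Over all 7 of these lists 29 genes were called, where 18.4% of all genes tested were called lower and 18.2% higher. Of the 29 genes, 20 passed in every alternative and 0 changed direction in any. The targeted gene Nfkbiz is among them, as is Csf3, whose direction was fixed by the filter, so the counts are a description. Calls of 8 genes with small changes (Cxcl12, Il1r1, Il1rap, Tnfrsf1a, Rel, Nfkb1, Traf3ip2 and Mthfd2l) were lost on both TPM scales.

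The genes whose pattern over the 6 samples was most like that of Cxcl1, by the root mean square difference of mean-centred log2 CPM, were Mkx (0.048), Tnn (0.051), Ndrg1 (0.052), Ly6c1 (0.067) and Il4 (0.068). Their log2 fold changes ran from -0.68 to -0.59. The 88 to 201 reads on Il4 lay outside its exons, as its mean TPM was 0 in both groups. Among those most like Cxcl5 were Car9 (0.73), Mcpt8 (0.87), Hunk (0.91) and Serpina3i (1.01). Their log2 fold changes ran from -5.77 to -4.03, and these 4 genes had 3 reads or fewer in each Nfkbiz KO sample, where the likeness rests on very few reads.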

How the data were processed

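RNA of 3 Ctrl and 3 Nfkbiz KO samples of D4M-3A cells was sequenced as paired-end reads of total RNA. Mapping by the authors used CLC Genomics Workbench (GRCm39 in the paper, GRCm38 in the submitters' processing notes), and they deposited, per sample, the total and unique gene reads as raw counts, which may include reads outside exons and do not use strand. The deposited TPM and RPKM values are other measures computed from exon reads, and their decimal commas were converted.

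Total gene reads were fitted with edgeR 4.0.16 in R 4.3.3 (TMM, filterByExpr at minimum counts of 10 per sample and 15 in total, quasi-likelihood test, Benjamini-Hochberg adjustment over 14419 genes), with no block. The standard error is the log2 fold change divided by the square root of F. The procedure was tested on simulated data with the same dispersion for all genes and both groups. That test does not cover the unequal spread given below. Alternatives were RLE factors, no filter, unique reads, a replicate block, DESeq2 1.42.0, limma 3.58.1 on log2(TPM + 1) and log2(TPM + 0.1), and each sample left out in turn. Pair ratios used 0.5 added reads (0.01 for TPM). Depth was 32219900 to 44927203 gene reads. Between samples of a group counts differed by more than counting noise, so none was a duplicate. The chi-square per degree of freedom was 25.8 to 65.9 between Ctrl samples and 3.41 to 5.89 between Nfkbiz KO samples, so the spread was unequal.

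Members and gene lists were chosen with earlier results of these data known. Named genes are the members, listed genes past the threshold or defining a list, and the 5 genes most alike in pattern to each of the 2 most abundant members tested. Of these genes 1 is not reported here. Thresholds of fold change and difference are the study's. The authors' notes give no unit for the difference. Figures used Python 3.11.15, pandas 2.3.3 and matplotlib 3.10.9.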

Additional observations from a re-analysis of the deposited data

How the results depend on the processing

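Cxcl1 and Cxcl5 stayed lower and past the threshold in all 13 alternatives, with log2 fold changes of -0.74 to -0.57 (adjusted p 4.1e-23 to 0.014) and -6.71 to -2.01 (adjusted p 2.2e-31 to 0.00054). With a sample left out in turn they ranged from -0.74 to -0.61 and from -6.71 to -5.43. The value of -2.01 for Cxcl5 is that of limma on log2(TPM + 1), whose pseudocount shrinks low genes. Because Cxcl5 passed the filter through its Ctrl reads alone, it had to differ, and its agreement over the alternatives is no added support. The sign of Cxcl2, which passed in no alternative, turned with limma on log2(TPM + 1) (0.048) and log2(TPM + 0.1) (0.075), without Ctrl replicate 1 (0.02) and without Nfkbiz KO replicate 2 (0.15). Its range with a sample left out was -0.18 to 0.15. Of 206 alternative values of 17 results, 201 kept their direction and their side of the threshold or range. That count is no measure of support, since part of the values could hardly move. No receptor could be tested in the main fit, the pair ratios are the same on unique reads, and the direction of Cxcl5 was bound by the filter. Numbers of genes were taken as kept within a wide range, which held even 3798 against 5274 genes. The number of genes past the less stringent thresholds went from 1810 to 1089 with limma on log2(TPM + 1). Genes past an adjusted p of 0.05 numbered 5274, and 3798 to 5638 in the alternatives. With the replicate block, Cxcl1, Cxcl2 and Cxcl5 had log2 fold changes of -0.67, -0.03 and -5.98, and 5087 genes were called, 4945 of them shared. No pairing by number was seen, as deviations of same-numbered samples correlated at -0.014 to 0.051, but 3 samples per group cannot exclude it. The best match in Nfkbiz KO had the same number for Ctrl replicates 1 and 3, and was replicate 3 for Ctrl replicate 2. At 0 to 5 reads per sample, depth limits what can be said of Cxcl3, Ppbp and Cxcl15, and of Cxcl5 in Nfkbiz KO.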
